A study of Mus musculus with 4 samples.

Results

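In the genome of V6.5 mouse embryonic stem cells, 206 regions were enriched in every one of the 4 chromatin immunoprecipitation libraries of this series, which were made with antibodies against Ring1b, REST, MCAF1 and H4K20me3. They were chosen by the read numbers of the 4 libraries themselves, as the Ring1b regions that overlapped, by at least 1 bp, a called region of each of the other 3 libraries. They made up 206 of 10580 Ring1b regions, and 24796 regions were called over the 4 libraries together. V6.5 cells have a mixed C57BL/6-129 background, and they had been off feeder cells for 1 passage (REST) or 2 passages (the other libraries). Each antibody had 1 library, run on a flow cell of its own, and neither an input nor a control antibody was used here. Enrichment by an antibody and an excess of reads that any library would show therefore cannot be told apart, and no value below has a replicate check.

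The 4 targets belong to different kinds of repressive chromatin. REST is a zinc finger protein that binds its own DNA motif and represses neuronal genes outside neurons. Ring1b is the catalytic subunit of a Polycomb complex that ubiquitinates histone H2A over silent developmental genes. MCAF1 (ATF7IP) binds and stabilises SETDB1, a histone methyltransferase that silences retrotransposons in embryonic stem cells, and H4K20me3 is a trimethylated lysine of histone H4 found in constitutive heterochromatin over satellite and other repeats. REST and Polycomb sites lie largely in sequence that occurs once, whereas repeats are sequence from which reads fit at several places. The deposited alignments keep reads that fit at 1 place and, separately, reads that fit at 2, and reads with 2 places were not used to choose the regions.

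The libraries held 3296354 (Ring1b), 3584684 (REST), 12564624 (MCAF1) and 7947440 (H4K20me3) reads with 1 location. A window of 1000 bp was called when its read number, with 1 read kept per position and strand, had a Poisson probability of at most 1e-09 and was at least 5 times background, the larger of the genome mean and the mean of the surrounding 1 Mb. Such calls covered 0.625% of windows for Ring1b, 0.100% for REST, 0.0726% for MCAF1 and 0.396% for H4K20me3, and windows called in all 4 libraries made up 0.00646%. The 206 regions were 1.95% of the Ring1b regions, 7.57% of the REST regions (205 counted as such), 9.64% of the MCAF1 regions (197) and 2.10% of the H4K20me3 regions (199).

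The fold of a region in a library was the read number of its highest window over background. In the regions called in all 4 libraries the fold ran from 5.12 to 220.0 for Ring1b, with a median of 16.4. It ran from 3.85 to 173 for REST (median 11.8), from 3.55 to 121 for MCAF1 (median 6.88) and from 2.95 to 147 for H4K20me3 (median 8.58). The other 10374 Ring1b regions had medians of 11.9 for Ring1b, 4.41 for REST, 2.84 for MCAF1 and 4.65 for H4K20me3. These folds chose the regions and are given as a description. Most regions were only just past the threshold in their weakest library. The smallest of the 4 folds had a median of 6.18 and an upper quartile of 8.84. It reached 10 in 45 regions, 20 in 16 and 50 in 3. The weakest library was MCAF1 in 126 regions, H4K20me3 in 62, REST in 12 and Ring1b in 6, while Ring1b was the strongest in 148. For a call, a window of average background needed a fold of 10.4 in Ring1b and 10.3 in REST. It needed 5.01 in MCAF1 and 5.91 in H4K20me3. Depth and antibody differed together between the libraries, so they cannot be told apart in this order. A fold under 5 inside the Ring1b region occurred in 16 regions, where the called window of that library overlapped the region's edge from outside. In 22 regions at least 1 library was called only in such windows, and 166 regions held at least 1 window called in all 4 libraries.

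**Figure D1:**
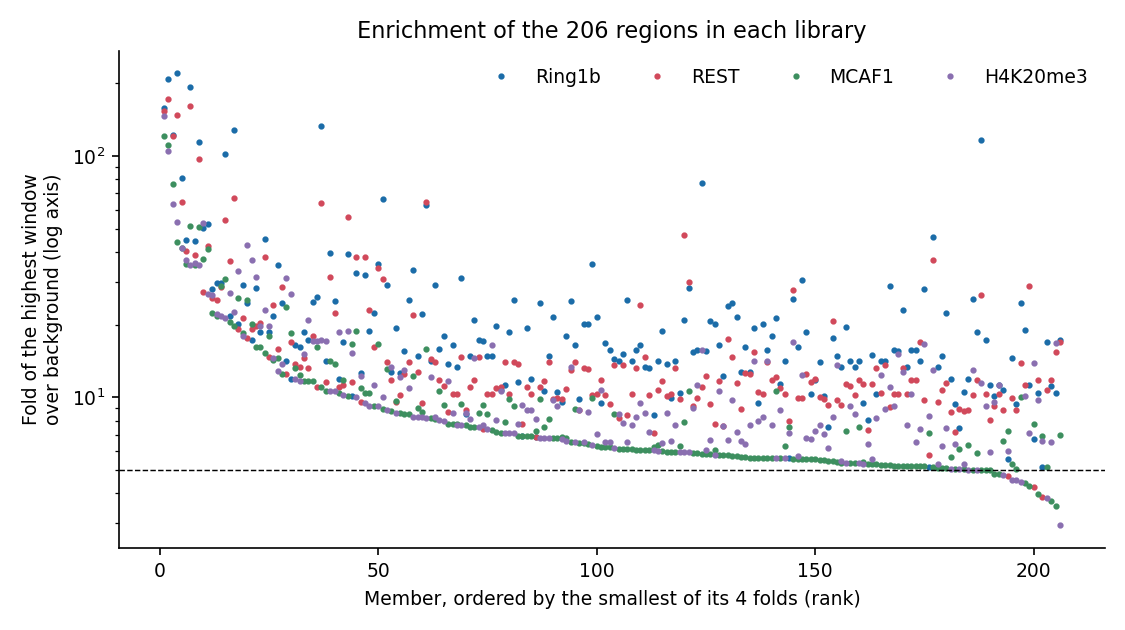
Fold of the highest window over background (log axis) in each of the 4 libraries for the 206 regions, ordered by the smallest of their folds; 1 point is 1 region in 1 library, and the dashed line marks 5 times background. The smallest fold falls from 121 at the left to a long tail near the threshold, and Ring1b and REST points lie above the MCAF1 points in most regions.

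The regions were small. Their median width was 1500 bp, 13 were wider than 3000 bp and the widest measured 7000 bp, for 385 kb in all. Within these 385 kb lay 0.597% of the distinct Ring1b reads, 0.443% of REST, 0.236% of MCAF1 and 0.292% of H4K20me3 reads, which is 36.7, 27.2, 14.5 and 17.9 times the genome density. The 5 deepest regions of each library held between 35.8% (MCAF1) and 46.1% (REST) of these reads. The same window was highest in both libraries of a pair in 140 (Ring1b and H4K20me3) to 160 (REST and MCAF1) of the 206 regions, and in at least 195 it was the same window or the next one.

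Reads with 2 locations were denser in these regions than in the other Ring1b regions in all 4 libraries. Of all two-location entries on nuclear chromosomes, 3.78% (15128) of the Ring1b library, 2.58% (12608) of REST, 5.75% (49402) of MCAF1 and 2.83% (16630) of H4K20me3 fell within the 385 kb. The density of these entries over the genome mean was 232 times for Ring1b (95% interval 228 to 236), 158 times for REST (155 to 161), 353 times for MCAF1 (349.6 to 356) and 174 times for H4K20me3 (171 to 176). In the other Ring1b regions it was 6.70 times for Ring1b, 1.78 for REST, 0.876 for MCAF1 and 1.29 for H4K20me3. Of these, regions that lacked only an H4K20me3 call had 58.2, 25.1, 27.0 and 17.9 times, in the same order of libraries. The highest of them reached 3975 times for Ring1b. Regions that lacked only REST had 6.61, 1.94, 1.64 and 3.24, and those that lacked only MCAF1 6.39, 1.81, 0.599 and 0.920. How far the choice by reads with 1 location bears on these differences was not tested. A few of the regions called in all 4 libraries carried most of their entries. The 5 with most entries held 64.5% of the regions' entries for Ring1b and for REST, 80.2% for MCAF1 and 67.2% for H4K20me3. Without those 5 the densities were 87.2, 59.5, 73.7 and 60.3 times the genome mean, in the same order of libraries. Repeated entries were kept in these counts. With 1 entry per position and strand the densities were 115 (Ring1b), 80.7 (REST), 76.5 (MCAF1) and 69.8 (H4K20me3), so MCAF1 was no longer the highest. All intervals are exact. Because reads were amplified and each is entered at each of its places, the intervals cover counting error only.

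The regions fell into 3 kinds by these reads, with cuts chosen after the values were seen. In 56 regions (27.2%, 21.2% to 33.8%) the two-location density was at least 5 times the genome mean in all 4 libraries. Among the other Ring1b regions 162 met this cut, or 1.56%. The other Ring1b regions were not chosen for calls in all 4 libraries. In them reads with 1 location had densities of 5.08 (REST), 3.33 (MCAF1) and 5.80 (H4K20me3) times the genome mean. The choice of regions therefore bears on the difference between these shares, by an amount that was not tested. In 58 regions (28.2%, 22.1% to 34.8%) no library had a single two-location entry, which was true of 4128 of the other Ring1b regions, or 39.8%. The remaining 92 regions lay between, with a median of 2 entries and a range of 1 to 131 over the 4 libraries together. At a cut of 10 times the genome mean 51 of the regions were left, beside 74 other Ring1b regions, and at 100 times 28 and 5. The regions that met the cut of 5 are called multi-location regions below, and the 58 with no entry single-location regions. These names describe the entries only. In a region of 1500 bp, 1 Ring1b entry is already a density of 3.94, so small regions can meet or miss the cut by few entries. Having no entry therefore does not show that a sequence occurs once, and reads with more than 2 locations were dropped.

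Multi-location regions made up most of the strongly enriched end. All 16 regions with a smallest fold of at least 20 and 24 of 29 between 10 and 20 were of this kind, and 0 and 2 of them were single-location regions. Of 91 regions with a smallest fold under 6, 5 were multi-location and 37 single-location. The median folds of multi-location regions were 25.6 for Ring1b, 22.2 for REST, 16.2 for MCAF1 and 17.6 for H4K20me3. Those of single-location regions were 15.0, 10.4, 5.83 and 7.54, and those of the regions in between were 15.7, 11.4, 6.17 and 8.07. Over the 206 regions, which share libraries and sequencing depth, the rank correlation between fold and two-location density was 0.370 for Ring1b, 0.418 for REST, 0.695 for MCAF1 and 0.508 for H4K20me3, as a description. The folds of 2 libraries had rank correlations across the 56 multi-location regions between 0.501 (Ring1b and H4K20me3) and 0.930 (Ring1b and REST). Across the 58 single-location regions they lay between -0.0510 and 0.337. The folds chose the regions, and those of single-location regions span a narrow range above the threshold, so the 2 sets of correlations cannot be compared.

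**Figure D2:**
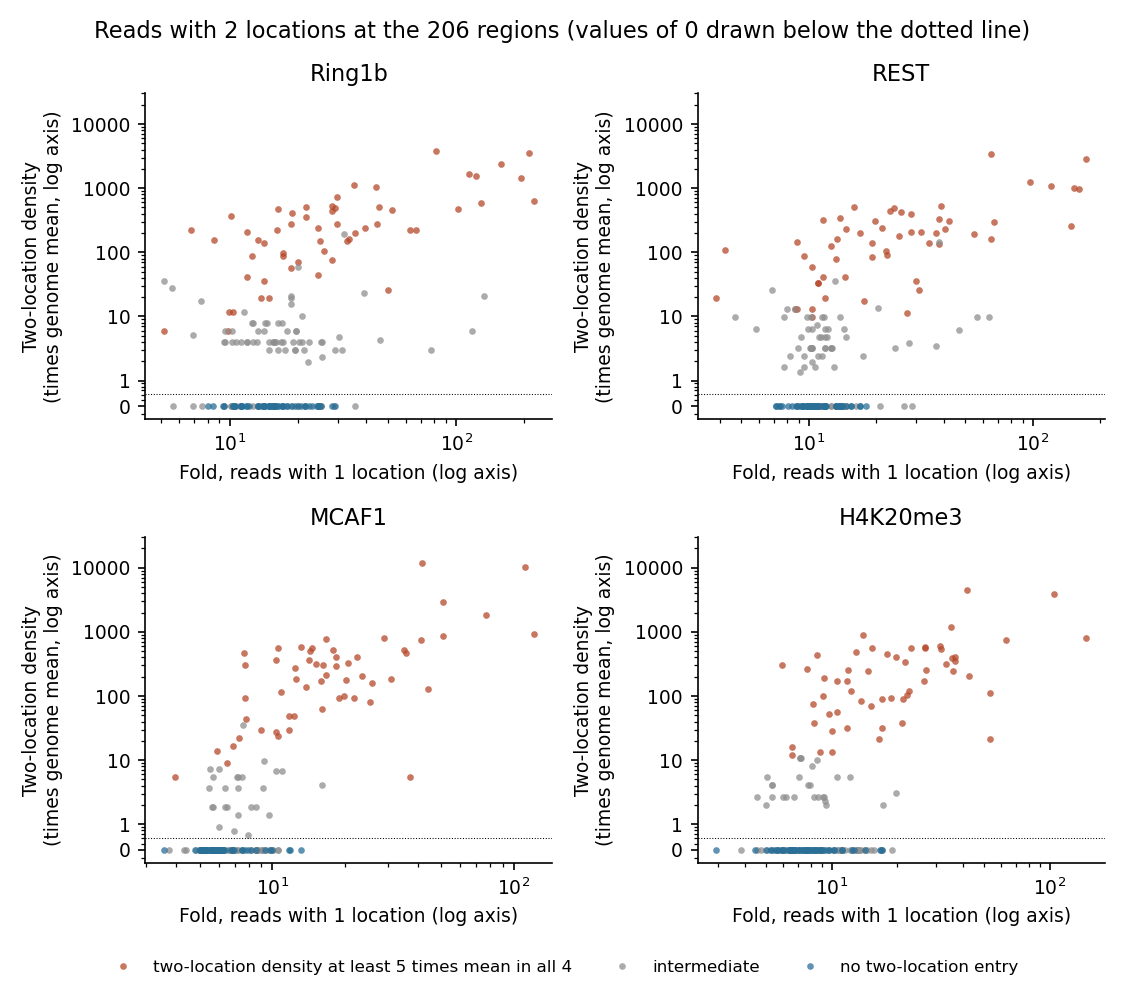
Density of two-location entries (times the genome mean, log axis, with 0 drawn below the dotted line) against the fold of reads with 1 location (log axis), 1 panel per library and 1 point per region. The 56 multi-location regions hold the highest folds and densities of every panel. Some lie at low folds, down to 5.12 for Ring1b, 3.85 for REST, 3.96 for MCAF1 and 5.91 for H4K20me3. The 58 single-location regions lie on the line of 0, at folds of at most 29.1, 18.0, 13.1 and 17.1 in the same order.

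The region highest by its smallest fold lay on chromosome 17 at 39450501–39457500 (mm8). Its highest window held 1569 Ring1b, 1153 REST, 1003 MCAF1 and 1128 H4K20me3 reads, or 158, 153, 121 and 147 times background. The surrounding 1 Mb was rich in reads here, with backgrounds of 9.94, 7.56, 8.26 and 7.70 reads where the genome means were 1.34, 1.36, 4.79 and 3.38. Over the genome mean the folds were 1170.1 for Ring1b, 847 for REST and 333 for H4K20me3, and lower still for MCAF1, so the likeness of the 4 folds holds for the local background only. Its two-location densities were 2417, 1003, 922 and 795 times the genome mean. The next, on chromosome 2 at 98462501–98469000, had 287 Ring1b reads in its highest window over a background of 1.37 (186 to 235 times), with 173-fold REST (154 to 195), 111-fold MCAF1 (102 to 121) and 105-fold H4K20me3 (94.0 to 116). The MCAF1 library had 24101 two-location entries in these 6500 bp, 10193 times the genome mean, and the other libraries had 3585 (Ring1b), 2881 (REST) and 3912 (H4K20me3) times.

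At the third, chromosome 5 at 2999501–3003000, which starts with the first assembled bases of the chromosome, the folds were 122, 121, 76.4 and 63.0 for Ring1b, REST, MCAF1 and H4K20me3. The highest Ring1b fold of all, 220.0 (199 to 242), was on chromosome 11 at 108827001–108829000, where REST reached 148, MCAF1 43.9 and H4K20me3 53.2. The highest two-location densities were on chromosome 14 at 39186501–39188500, with 3849 times the genome mean for Ring1b, 3463 for REST, 12049 for MCAF1 and 4467 for H4K20me3, beside folds of 81.3, 64.7, 41.5 and 41.7. All 10 regions that were highest by the smallest fold were multi-location regions. They included chromosome 14 at 18208001–18211000 (folds 194, 161, 51.1 and 35.5) and chromosome 9 at 35054001–35056000 (114, 97.5, 50.7 and 35.2).

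Single-location regions had lower median folds, and within each library their folds ran over a narrower range. The highest of them lay on chromosome 1 at 90108001–90109500, with 24.9-fold Ring1b (17.9 to 33.6), 18.0-fold REST (12.3 to 25.4), 11.7-fold MCAF1 (9.43 to 14.3) and 17.1-fold H4K20me3 (14.1 to 20.7). The second, on chromosome 14 at 50930501–50932000, had 17.0-fold Ring1b, 11.2-fold REST, 11.8-fold MCAF1 and 10.2-fold H4K20me3. The third, on chromosome 3 at 64051501–64053500, had 29.1, 14.0, 13.1 and 8.86. Over the 58 regions the fold ran from 8.06 to 29.1 for Ring1b, 7.11 to 18.0 for REST, 3.55 to 13.1 for MCAF1 and 2.95 to 17.1 for H4K20me3. The lowest of all by the smallest fold was such a region, on chromosome 9 at 100451501–100453500, with 17.2-fold Ring1b and 16.9-fold REST, but 6.96-fold MCAF1 and 2.95-fold H4K20me3 (1.42 to 5.43) inside its edges.

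In the median region the read pile-up was narrow in every library. In windows centred on the highest shared window, multi-location regions had median densities of 35.8 times the genome mean for Ring1b, 31.6 for REST, 19.3 for MCAF1 and 22.2 for H4K20me3. Single-location regions had 15.7, 11.8, 6.57 and 8.57. The other Ring1b regions had 15.7, 5.88, 3.96 and 5.91, so that single-location regions had the same median in Ring1b and lay above them in the 3 libraries that the choice of regions called for. At 2000 bp on either side the medians were between 0.746 and 1.56 in all 3 sets and 4 libraries. In multi-location regions the upper quartile at 2000 bp downstream was 7.64 for Ring1b, 9.74 for REST, 6.00 for MCAF1 and 3.69 for H4K20me3, and for REST it was 11.0 at 4000 bp on either side. In single-location regions the upper quartile at 2000 bp downstream was between 2.24 and 2.94.

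**Figure D3:**
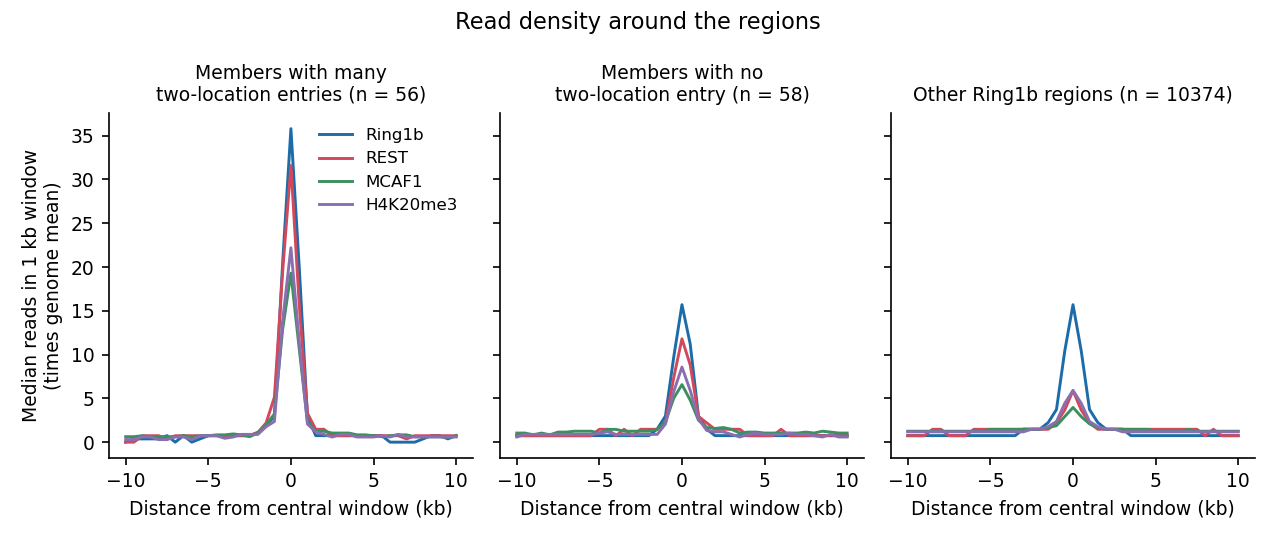
Median read number in windows of 1000 bp, as multiples of the genome mean, against the distance from the central window (kb), for multi-location regions (left), single-location regions (middle) and the other Ring1b regions (right), 1 line per library. The medians of all 4 libraries peak at the central window and return to about 1 within 2000 bp; the spread between regions is not drawn.

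Reads fell repeatedly on the same positions in multi-location regions. A read at a position and strand that was already used made up 51.3% of Ring1b reads there (50.7% to 51.9%), 47.7% of REST, 61.4% of MCAF1 and 41.6% of H4K20me3 reads. The same reads spread evenly within each region would give 20.8%, 12.6%, 18.7% and 12.8%. These pooled shares are weighted towards the deepest regions. The median multi-location region had 19.8% for Ring1b, 24.1% for REST, 34.0% for MCAF1 and 23.4% for H4K20me3, where the median for an even spread was 1.01%, 1.11%, 2.83% and 1.90%. The share was above the even spread in 52, 54, 56 and 56 of the 56 regions. The even spread counts every position, also those whose reads fit at 2 or more places and so cannot hold a read with 1 location. It is therefore too low where such positions are many, by an amount that was not tested. In single-location regions the shares were 5.13% for Ring1b (4.15% to 6.25%), 14.5% for REST, 13.5% for MCAF1 and 3.27% for H4K20me3. The other Ring1b regions had 7.14%, 15.0%, 12.8% and 3.03%. The median single-location region had 4.88%, 13.4%, 12.8% and 2.86%, and the median of the other Ring1b regions was 5.26%, 12.5%, 11.8% and 2.0%. Regions differed widely, from 0% to 76.8% for Ring1b and from 0% to 94.7% for MCAF1. The chromosome 14 region with the highest two-location density had the 94.7%, where 3800 MCAF1 reads were left with few distinct positions, and 60.6% in Ring1b, 66.7% in REST and 85.4% in H4K20me3. The 162 other Ring1b regions that met the same two-location cut had 14.9% for Ring1b, 23.9% for REST, 17.5% for MCAF1 and 6.14% for H4K20me3.

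**Figure D4:**
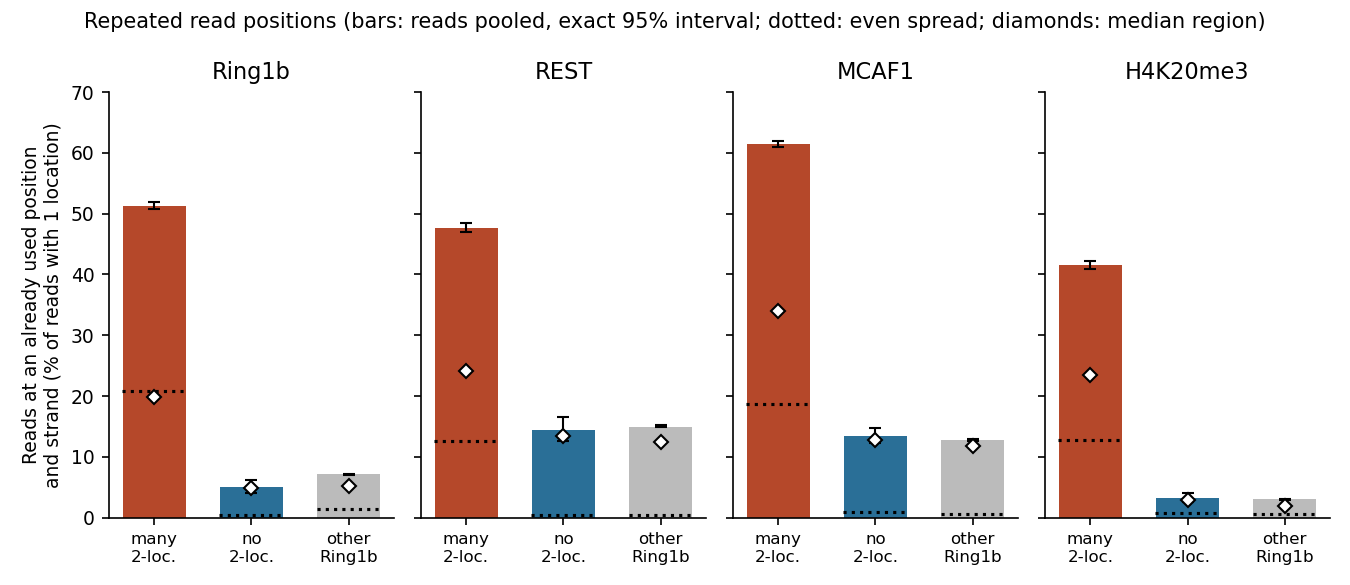
Share of reads with 1 location (%) that fell on a position and strand already used, in each library, for multi-location regions (left bar), single-location regions (middle bar) and other Ring1b regions (right bar), with exact 95% intervals as error bars; bars pool the reads of a set, dotted lines give the pooled share if the same reads were spread evenly within each region, and diamonds give the median region. The left bars lie between 41.6% and 61.4% and their diamonds between 19.8% and 34.0%, and every other bar is at most 15.0%.

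The same positions were used in different libraries. In multi-location regions 45.9% of the distinct Ring1b positions (45.0% to 46.8%) were also held by a REST read on the same strand, where an even spread would give 17.3%. The share of H4K20me3 positions also held by MCAF1 was 47.8%, against 16.0% for an even spread. In the median multi-location region these shares were 20.6% and 38.3%, where the medians for an even spread were 1.36% and 3.37%. This even spread, too, counts positions that no read with 1 location can hold, and is too low where they are many. In single-location regions the shares over all ordered pairs of libraries ran from 0.846% to 2.35%, and in the other Ring1b regions from 0.467% to 2.38%. The Ring1b and REST pair had 1.17% in single-location regions (0.719% to 1.81%), beside 0.662% for an even spread.

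The arrangement of reads on the 2 strands also differed between the kinds of region. Fragments pulled down at a point give plus-strand reads upstream of minus-strand reads, so pairs of reads on opposite strands are most frequent at a positive offset. With each region given equal weight, the most frequent offset in multi-location regions was from -50 to 0 bp in all 4 libraries. Pairs there were 11.8 times as frequent for Ring1b, 9.86 for REST, 10.3 for MCAF1 and 8.95 for H4K20me3 as at 500 to 1000 bp. In single-location regions the most frequent offset was 100 to 150 bp for Ring1b (2.92 times), REST (2.54) and H4K20me3 (3.05), and 50 to 100 bp for MCAF1 (2.07). The other Ring1b regions had the same most frequent offsets, with 2.77 for Ring1b, 2.64 for REST, 2.31 for H4K20me3 and 1.96 for MCAF1. The 162 of them that met the two-location cut had their maximum at 0 to 50 bp in every library, between 3.72 (MCAF1) and 6.11 (Ring1b) times. When all read pairs were pooled, so that the deepest regions counted most, the maximum of multi-location regions was at 0 to 50 bp and only 1.69 to 2.21 times. The files do not say which end of a minus-strand read its position marks. The other reading would shift all offsets of a library alike, by about a read length. On which side of 0 bp the maximum of multi-location regions lies is therefore not settled. Plus-strand reads made up between 49.5% and 50.3% of reads over the 206 regions in each library.

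**Figure D5:**
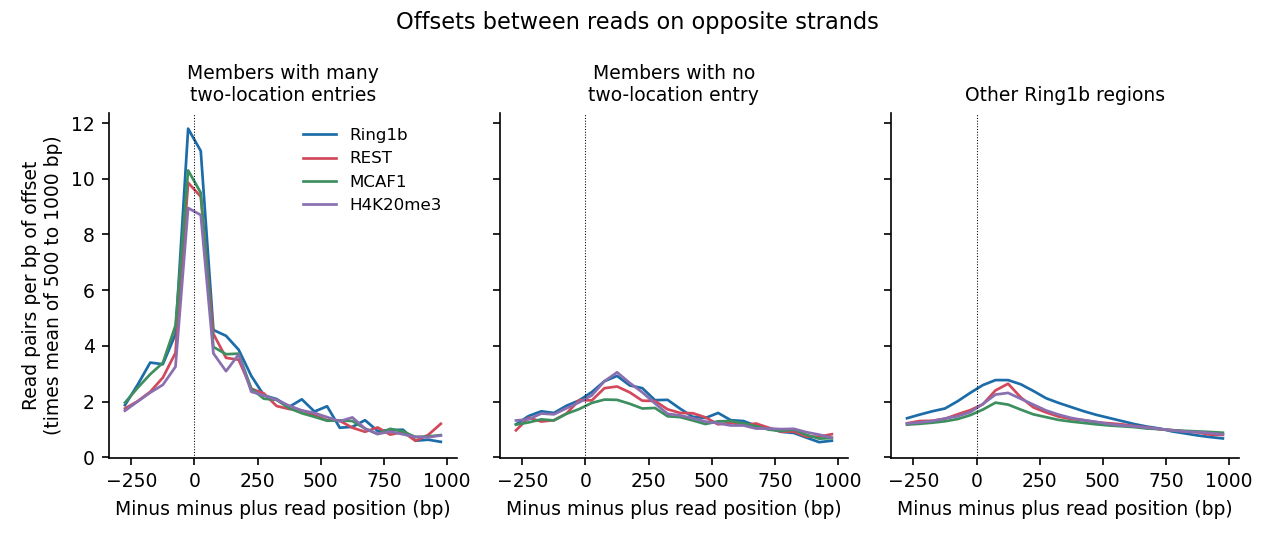
Frequency of read pairs on opposite strands by offset (minus-strand minus plus-strand position, bp), as multiples of the mean at 500 to 1000 bp, with regions weighted equally, for multi-location regions (left), single-location regions (middle) and other Ring1b regions (right), 1 line per library. The left panel has sharp maxima of 8.95 to 11.8 next to 0 bp, and the other panels have broad maxima of 1.96 to 3.05 between 50 and 150 bp.

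Many multi-location regions lay near chromosome starts, most of these on chromosomes 9 and 11. Most mouse chromosomes have their centromere at the end from which the assembly is numbered. The first Mb with reads held 29 of the 206 regions (14.1%, 9.64% to 19.6%), beside 88 of the other Ring1b regions, or 0.848%. Of the multi-location regions 22 of 56 lay there (39.3%), and of the single-location regions 0 of 58, which allows up to 6.16%. The last Mb held 9 regions (4.37%), beside 1.20% of the other Ring1b regions. Chromosome 11 had 20 regions, 12 of them in its first Mb, within 52.5 kb. Chromosome 9 had 17, with 8 in its first Mb, within 37.5 kb. Of these, 6 of the 12 and all 8 were multi-location regions. All 4 regions on X were multi-location regions, and 3 of the 7 Ring1b regions on Y (42.9%) were called in all 4 libraries.

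With gaps of up to 20 kb joined, 9 clusters held 34 of the regions, so neighbouring regions are not independent. The intervals given above for shares of regions treat them as independent and are too narrow. The densest lay on chromosome 11 at 3042501–3095000, with 12 regions in 52.5 kb, 6 of them multi-location. The surrounding 1 Mb was itself rich in reads. Ring1b folds over this background were 5.12 to 50.2, while the read numbers were 24.6 to 231 times the genome mean. H4K20me3 folds in this cluster were 5.03 to 53.0 and 31.9 to 330.0 times the genome mean. On chromosome 9 at 2999501–3037000, 8 regions in 37.5 kb were all multi-location, with folds of 16.2 to 44.4 for Ring1b, 13.3 to 38.8 for REST, 10.4 to 35.2 for MCAF1 and 9.23 to 35.9 for H4K20me3. On X at 165330501–165332000, H4K20me3 was the strongest library at 31.3-fold (26.7 to 36.4), followed by MCAF1 at 23.6 (19.4 to 28.3), Ring1b at 14.2 and REST at 12.5.

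Among regions that did not meet the two-location cut, some had a far higher fold in 1 library. On chromosome 2 at 22470501–22477500 Ring1b reached 117-fold (101 to 134), with 26.5-fold REST, 5.01-fold MCAF1 (3.21 to 7.45) and 11.5-fold H4K20me3. Ring1b was 10.1 times the median of the other 3 folds there, the most of any region. Chromosome 15 at 5188501–5192500 was similar, with 77.6-fold Ring1b, 11.0-fold REST, 5.84-fold MCAF1 and 15.7-fold H4K20me3, and only 2 two-location entries, both in the Ring1b library. On chromosome 17 at 35838501–35840500 Ring1b reached 133-fold and REST 63.8-fold. REST was the strongest on chromosome 2 at 79254501–79258500, with 47.0-fold (36.2 to 60.1), where Ring1b had 20.9, MCAF1 7.93 and H4K20me3 5.91. It was also the strongest on chromosome 1 at 84574001–84575500, with 29.0-fold REST and 11.2-fold Ring1b. When the other 3 libraries together served as background, 8 regions were still called in Ring1b and 3 in REST, beside 27.5% and 0.771% of the other Ring1b regions. Inside the Ring1b region 0 were called in MCAF1 and in H4K20me3, beside 0% of the other Ring1b regions. Counted instead over each library's own regions called in all 4, the numbers were 8 of 206 for Ring1b, 3 of 205 for REST, 0 of 197 for MCAF1 and 5 of 199 for H4K20me3. A choice that requires calls in all 4 libraries bears on these counts, and they are given as a description. The Ring1b and REST calls inside the Ring1b regions fell in 10 distinct regions. Of these 10, 1 was a multi-location region, on chromosome 3 at 5843001–5844500, with 66.4-fold Ring1b and 30.9-fold REST. No region was called against the other 3 libraries in all 4.

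Regions just outside the choice lacked a call in 1 library. In all, 989 Ring1b regions were called in exactly 3 libraries, of which 488 lacked REST, 418 lacked MCAF1 and 83 lacked H4K20me3. The missing fold had a median of 5.93 for REST (highest 9.55), 3.38 for MCAF1 (4.99) and 3.84 for H4K20me3 (5.66). Ranked by the Poisson probability of the missing library, which favours the deep MCAF1 library, the 5 nearest all lacked MCAF1 and had MCAF1 folds of 4.59 to 4.97, under the required 5. The first, on chromosome 17 at 45065001–45066500, had 10.9-fold Ring1b, 6.71-fold REST, 4.95-fold MCAF1 and 3.41-fold H4K20me3. Just inside lay chromosome 8 at 60403001–60404500, with 7.56, 9.33, 5.46 and 6.18 for the same libraries. Of these regions with 3 calls, 12 of 488, 6 of 418 and 7 of 83 met the two-location cut in all 4 libraries.

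Fewer regions were called at equal depth. With every library thinned to 3083311 distinct reads, 59 regions were called in all 4, and 42 of 56 multi-location regions were found again, beside 13 of the 92 in between and 2 of the 58 single-location regions. Such recovery depends on how far a region's folds lie above the threshold, and multi-location regions held most of the high folds. It is therefore no separate evidence on the kinds of region. The count of 206, and the share of single-location regions in it, hold for the deposited depths and these thresholds only.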

How the data were processed

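Chromatin immunoprecipitation libraries of V6.5 cells were read as deposited: signed read positions, 1 entry per reported location, with no score and no normalisation. The authors aligned reads to mm8 with Bowtie, per the submitters' processing notes; the sources used here give no version. The headers show that at most 2 locations were reported and reads with more dropped, that 2 seed mismatches and a quality sum of 70 were allowed, and that the seed was 26 bases for Ring1b and REST and 36 for MCAF1 and H4K20me3. Sonicated fragments averaged 500 bp and were amplified over 18 cycles, per the labels' protocols. Gel selection was at 150 to 300 bp for Ring1b and MCAF1 and at 150 to 350 bp for REST and H4K20me3. The inserts were given as 50 to 200 nt in every library. Positions were read as counting from 0 and are given from 1.

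Reads with 1 location were reduced to 1 per position and strand and moved 75 bp towards their 3′ end. They were counted in windows of 1000 bp every 500 bp, of which 4598722 of 5261489 held a read of any library and gave the means. Overlapping calls were joined. Mitochondrial reads were left out. The Poisson test sets a window against its own library and does not compare antibodies, and no test was made between sets of regions. Two-location entries were counted at every reported place, with repeats kept and the genome mean taken over covered sequence. Shares have exact Clopper-Pearson intervals and densities exact Poisson intervals at 95%. Calling was tested on simulated window counts with an even Poisson background and planted regions. The simulation had no repeats, repeated positions or read-rich stretches, so it does not show how calling behaves there. The members, the cuts and the rules were chosen with earlier results of these data known.

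Regions were named by a rule: the 10 highest and 5 lowest by the smallest fold, the 3 in which each library was highest relative to the others, the 5 widest, the 5 with most and the 5 with fewest two-location entries, those called against the other 3 libraries, and the 5 nearest misses. The text gives examples. The region just inside the threshold and the clusters fall outside this rule and were chosen after their values were seen. No mm8 genome or annotation was used here, so neither genes, repeats nor sequences are given. Software was Python 3.11.15 with scipy 1.17.1, numpy 2.4.6 and, for plots, matplotlib 3.10.9.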

Additional observations from a re-analysis of the deposited data

How the results depend on the processing

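The number of regions called in all 4 libraries depended on the thresholds. It was 458 at a Poisson threshold of 1e-06 and 97 at 1e-12, 310 with a minimum fold of 3 and 46 with 10, 975 with the genome mean alone as background and 0 with the other 3 libraries as background. It was 59 at equal depth, 326 with reads of 1 or 2 locations together and 105 with windows of 2000 bp. The other 8 alternatives gave 166 to 290, within 1.5 times of 206. With windows moved by 250 bp 202 regions were called, and these overlapped 155 of the 206. At 1e-12, 45 of 56 multi-location and 12 of 58 single-location regions were found again, which restates their folds. Under the 6 alternatives run for them, median folds were 15.4 to 20.1 for Ring1b and 11.2 to 14.0 for REST. They were 6.75 to 8.55 for MCAF1 and 8.27 to 10.6 for H4K20me3. All lay within the counting interval of a typical single region, which is too wide to judge a median over 206 regions.

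Two-location densities stayed far above the genome mean but varied in size and in the order of the libraries. With 1 entry per position and strand they were 115 (Ring1b), 80.7 (REST), 76.5 (MCAF1) and 69.8 (H4K20me3) times the genome mean, and in the highest shared window alone 223, 163, 378 and 186. In regions with a smallest fold of at least 10 they were 803, 544, 1249 and 595, and without the 5 regions with most entries, an alternative chosen after seeing the data, 87.2, 59.5, 73.7 and 60.3. The cause of these shifts was not tested. With cuts of 2 and 10, also chosen after seeing the data, 64 and 51 regions were multi-location in place of 56. No paired analysis was possible because each antibody had 1 library. With 1 library per antibody, no input and Ring1b and REST at 3083311 and 3129369 distinct reads, weak regions were at the limit of what could be called.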
